A study of Mus musculus with 15 samples.

Results

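ATOH1 binding sites that lay in open chromatin of both secretory and enterocyte progenitors of the mouse intestine numbered 4838 of 15240 ATOH1 peaks (31.7%). They were chosen by position alone, as ATOH1 peaks of secretory progenitors (Sec-Pro) overlapped by at least 1 bp by a DNase I hypersensitive site (DHS) of Sec-Pro and by a DHS of enterocyte progenitors (Ent-Pro). They are called shared open ATOH1 sites here. The presence of the ATOH1 peak and of both DHS made the choice, so values of these 3 lists are given as a description. The 9 histone lists played no part in it. A further 331 ATOH1 peaks (2.17%) had a DHS in Sec-Pro alone, 804 (5.28%) had one in Ent-Pro alone and 9267 (60.8%) had none, and these last are called ATOH1 sites without a DHS.

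ATOH1 is a basic helix-loop-helix transcription factor that intestinal cells need to become goblet, Paneth, enteroendocrine or other secretory cells. Notch signalling between neighbouring crypt cells represses the Atoh1 gene, and cells in which it stays silent become absorptive enterocytes. Nucleosomes beside active promoters and enhancers carry H3K4me2, those at active elements also carry H3K27ac, and DNase I cuts where nucleosomes have given way.

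The study mapped H3K4me2, H3K27ac, DHS and ATOH1 in epithelial cells of C57BL/6 mice along both lineages, to ask how far chromatin differs between cells bound for opposite fates. Stem cells (ISC, 1 H3K4me2 library) were sorted as GFP-positive cells of Lgr5-eGFP-Cre mice, in which the Lgr5 promoter drives the reporter. Sec-Pro came from crypts of mice with Rbpj, the DNA-binding partner of Notch, deleted (H3K4me2 replicate 1) or of mice given dibenzazepine, a Notch inhibitor (DBZ, H3K4me2 replicate 2). The preparation behind the Sec-Pro H3K27ac, DHS and ATOH1 lists (1 library each) is not stated in the labels. Ent-Pro (2 H3K4me2 libraries, 1 of H3K27ac, 1 of DHS) and enterocytes (ENT, 1 H3K4me2 library) came from crypts and villi of Atoh1-/- mice, which have no secretory cells, and goblet cells (GOB, 1 H3K4me2 library) from villi of Rbpj-/- mice. The Ent-Pro DHS were thus mapped in cells without the Atoh1 gene. ATOH1 itself was mapped with an antibody against the FLAG tag. In every comparison here the effect of lineage and that of genotype or treatment cannot be told apart. No source used here gives the promoter or cell type in which Rbpj and Atoh1 were deleted, or says whether animals were pooled. Peak lists hold no expression values, so the cell types were not checked against marker genes.

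Each list gives peaks with a score of the authors, used here only to rank peaks within their list. The lists held 63293 to 92279 peaks for H3K4me2, 74483 and 68764 for H3K27ac in Sec-Pro and Ent-Pro, and 31980 and 38595 for DHS in Sec-Pro and Ent-Pro. No source used here gives read numbers. Depth is therefore unknown, and a site without a peak is not shown to lack the mark. The shortest H3K4me2 peak measured 146 bp in ISC, DBZ Sec-Pro, Ent-Pro replicate 1, GOB and ENT, and 200 bp in Rbpj-/- Sec-Pro and Ent-Pro replicate 2, so values for lists of 1 kind stand beside those for both. Brackets give 95% intervals over sites, which cover counting error only. Sites are not replicates and most marks come from 1 library a cell type, so these intervals compare lists, not conditions.

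Shared open ATOH1 sites were short peaks inside larger open regions. ATOH1 peak length ranged from 131 to 3725 bp with a median of 206 bp, and the ATOH1 score ranged from 2.03 to 309 with a median of 6.47. The Sec-Pro DHS around them had a median length of 634 bp, with the ATOH1 peak centre a median of 126.5 bp from the DHS centre. For the Ent-Pro DHS these values were 668 bp and 128.5 bp. In all, 2891 sites (59.8%) lay wholly inside a DHS of each progenitor. At the edge of the rule, 191 sites (3.95%) were overlapped by under 50 bp in at least 1 progenitor, and 4 of them by 1 bp. Just outside it, 168 other ATOH1 peaks had a DHS of both progenitors on them or within 50 bp, and 1512 had them within 1000 bp.

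The DHS that held the sites stood high in their lists. Their median score percentile was 77.8 in Sec-Pro and 80.7 in Ent-Pro, where 50 is the middle of the list but not the value to expect. The rule asked for a DHS in both progenitors, and the highest-scoring DHS of each site was taken. The upper 10% of both lists held 1115 of the sites (23.0%), and the lower 50% of both held 414 (8.56%). These shares were not counted over all DHS found in both progenitors, so the ranks are a description only. Over the 4838 sites the scores of the 2 DHS lists had a Spearman correlation of 0.942, while ATOH1 and Sec-Pro DHS scores, which come from the same cell type, had one of -0.02. Both correlations are descriptions over sites that the presence of these peaks selected. The sites fell in 4498 Sec-Pro DHS, of which 4177 held 1 of them, 302 held 2 and 19 held 3.

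Every assembled chromosome in the ATOH1 list had such sites, from 445 on chromosome 11 to 57 on the X chromosome. Their share of a chromosome's ATOH1 peaks ran from 28.5% on chromosome 14 to 37.3% on X. None of the 34 ATOH1 peaks on unplaced contigs was among them.

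Nearly all shared open ATOH1 sites carried H3K4me2 in at least 1 cell type. A peak in 1 or more of the 7 H3K4me2 lists overlapped 4602 sites (95.1% [94.5, 95.7]), against 68.4% of all ATOH1 peaks, and 2942 (60.8%) had one in all 7, against 33.1%. The ISC list marked 63.1% of the sites, against 37.7% of all 15240 ATOH1 peaks. In Sec-Pro, 84.2% were marked after Rbpj deletion, against 48.8% of all ATOH1 peaks, and 88.7% under DBZ, against 58.9%. In Ent-Pro, 90.5% were marked in replicate 1, against 58.1% of all ATOH1 peaks, and 83.8% in replicate 2, against 49.7%. The mature lists marked the most sites, 93.8% in GOB, against 62.8% of all ATOH1 peaks, and 90.8% in ENT, against 55.0%. ISC thus had the lowest share of the 7 lists at these sites, and GOB the highest.

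H3K27ac was found on most of them in both progenitors. The Sec-Pro list marked 77.1% of the sites, against 47.7% of all ATOH1 peaks, and the Ent-Pro list 81.0%, against 51.4%. Both lists marked 3665 sites (75.8% [74.5, 76.9]), against 45.4% of all ATOH1 peaks, and neither marked 857 (17.7%), against 46.2%. H3K27ac without H3K4me2 in any of the 7 lists was found at 13 sites (0.269%), against 1.31% of all ATOH1 peaks. All 7 H3K4me2 lists but neither H3K27ac list marked 292 sites (6.04%), against 3.21% of all ATOH1 peaks. Of these 292, 67 had an H3K27ac peak within 500 bp.

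**Figure D1:**
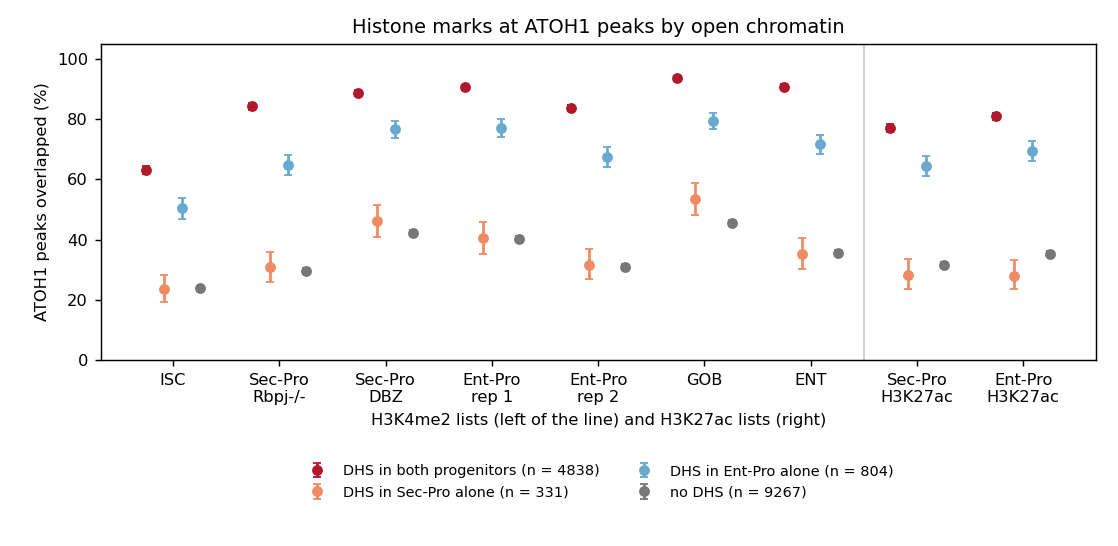
Share of ATOH1 peaks (%) overlapped by a peak of each H3K4me2 list and each H3K27ac list, for peaks with a DHS in both progenitors, in Sec-Pro alone, in Ent-Pro alone and without a DHS, with 95% Wilson intervals over sites. Shared open sites have the highest share in all 9 lists, for example 77.1% against 28.4%, 64.4% and 31.7% for Sec-Pro H3K27ac.

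Shares at ATOH1 sites without a DHS were lower in every list. H3K27ac of Sec-Pro covered 77.1% of the shared open sites and 31.7% of the sites without a DHS, a difference of 45.4 percentage points [43.9, 46.9]. H3K27ac of Ent-Pro covered 81.0% and 35.2%, a difference of 45.8 points [44.3, 47.2]. For H3K4me2 the difference ran from 39.2 points [37.6, 40.8] in ISC to 55.2 points [53.9, 56.4] in ENT. In GOB it was 48.3 points [47.0, 49.5], with 93.8% of the shared open sites and 45.5% of the sites without a DHS marked.

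ATOH1 sites open in Sec-Pro alone also carried fewer marks, also in Sec-Pro itself. H3K27ac of Sec-Pro covered 77.1% of the shared open sites and 28.4% of the 331 sites with a DHS in Sec-Pro alone, a difference of 48.7 points [43.5, 53.4]. DHS scores differed along with it, with median Sec-Pro DHS percentiles of 77.8 at shared open sites and 27.6 at Sec-Pro-alone sites. A comparison added after the data were seen took sites whose Sec-Pro DHS was in the lower 50% of its list. Of these, 51.5% of 718 shared open sites and 24.7% of 271 Sec-Pro-alone sites were marked, a difference of 26.8 points [20.2, 32.8]. DHS scores within this 50% were not matched. The 804 sites with a DHS in Ent-Pro alone came closer to the shared open sites, with 64.4% marked by Sec-Pro H3K27ac, a difference of 12.6 points [9.20, 16.2].

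Marks came together at shared open ATOH1 sites. All 9 histone lists marked 2467 of them (51.0%), against 27.5% of all ATOH1 peaks and 14.7% of the sites without a DHS. Another 753 (15.6%) were marked in every list but ISC, against 8.74% of all ATOH1 peaks. In 7 or more of the 9 lists 3948 (81.6%) were marked, against 46.5% of all ATOH1 peaks. At sites without a DHS this share was 27.5%, so marks also came together at some of those. No list marked 223 sites (4.61%), against 30.3% of all ATOH1 peaks and 44.8% of those without a DHS. The sites with 1 to 6 marks numbered 667.

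**Figure D2:**
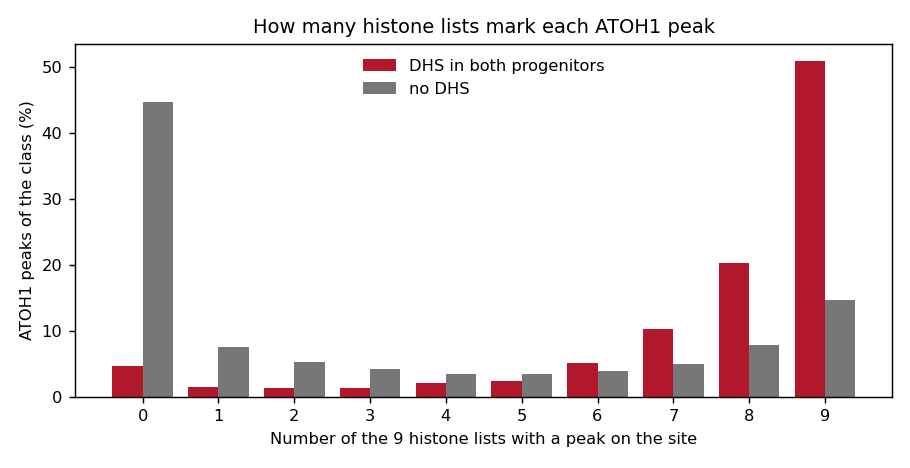
Number of the 9 histone lists (x axis, 0 to 9) that overlap an ATOH1 peak, as a share (%) of the shared open sites and of the ATOH1 sites without a DHS. The shared open sites pile up at 9 lists (51.0%) and the sites without a DHS at 0 (44.8%), with a smaller rise of the latter at 9 (14.7%).

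The first comparison between lineages asked whether the progenitor in which ATOH1 was mapped marks these sites more often than the one without the Atoh1 gene. Shares of sites with H3K4me2 were 84.2% and 88.7% in the Sec-Pro libraries and 90.5% and 83.8% in the Ent-Pro libraries, so the ranges of the groups overlapped. The means were 86.5% ± 3.20 in Sec-Pro and 87.2% ± 4.75 in Ent-Pro (SD, n = 2 libraries each). Their difference of -0.70 points was smaller than the spread between libraries, with an exact two-sided permutation p = 1 over the 4 libraries, where the smallest p possible is 0.333. Between the lists with a shortest peak of 146 bp, Sec-Pro minus Ent-Pro was -1.80 points [-2.38, -1.21], and between those of 200 bp it was 0.39 points [-0.30, 1.09]. Leaving out Rbpj-/- Sec-Pro gave 1.56 points and leaving out Ent-Pro replicate 1 gave 2.66 points, so the sign depended on which libraries were used.

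Site by site, few shared open ATOH1 sites were marked by lineage, and few ATOH1 peaks of any kind were. All 4 progenitor H3K4me2 libraries marked 3877 shared open sites (80.1% [79.0, 81.2]), against 45.2% of all ATOH1 peaks, and none marked 360 (7.44%), against 37.4%. Both Sec-Pro and neither Ent-Pro library marked 6 sites (0.124%), against 0.21% of all ATOH1 peaks. Both Ent-Pro and neither Sec-Pro library marked 21 (0.434%), against 0.367% of all ATOH1 peaks.

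H3K27ac was called at fewer of these sites in Sec-Pro than in Ent-Pro. The shares of 77.1% in Sec-Pro and 81.0% in Ent-Pro differed by -3.89 points [-4.60, -3.17]. Sec-Pro alone marked 64 sites (1.32%), against 2.4% of all ATOH1 peaks, and Ent-Pro alone marked 252 (5.21%), against 6.04% of all ATOH1 peaks. At ATOH1 sites without a DHS the shares were 31.7% in Sec-Pro and 35.2% in Ent-Pro, a difference of -3.53 points [-4.15, -2.91], and the intervals of these differences overlapped. The Sec-Pro list held more peaks but covered less of the genome than the Ent-Pro list, 59.7 Mb and 64.0 Mb, and the part of this in the difference was not tested.

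Some of the sites marked in 1 progenitor alone lay beside a peak of the other. An Ent-Pro H3K27ac peak stood within 500 bp of 21 of the 64 Sec-Pro-alone sites, and a Sec-Pro H3K27ac peak within 500 bp of 114 of the 252 Ent-Pro-alone sites. Such neighbours were not counted over all ATOH1 peaks, so these counts are not shown to be particular to shared open sites. Counting peaks within 500 bp, Sec-Pro minus Ent-Pro was -2.77 points [-3.41, -2.13]. H3K4me2 of both progenitors was found at most of these sites, as it was over all shared open sites. There the shares were 84.2% in Rbpj-/- Sec-Pro and 88.7% in DBZ Sec-Pro. In Ent-Pro replicates 1 and 2 they were 90.5% and 83.8%. Over all ATOH1 peaks the shares were 48.8%, 58.9%, 58.1% and 49.7% in the same order. Of the 64 sites acetylated in Sec-Pro alone, 76.6% had H3K4me2 in Rbpj-/- Sec-Pro and 64.1% in Ent-Pro replicate 2, the 200-bp lists, while 78.1% had it in DBZ Sec-Pro and 81.3% in Ent-Pro replicate 1. Of the 252 acetylated in Ent-Pro alone, 79.4% had it in Rbpj-/- Sec-Pro and 83.3% in Ent-Pro replicate 2, while 91.3% had it in DBZ Sec-Pro and 90.1% in Ent-Pro replicate 1.

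The ATOH1 peaks that ranked highest among sites acetylated in Sec-Pro alone lay on chromosome 8. The site at chr8:125293200-125294005 (mm9) had an ATOH1 score of 175 and ranked 23 of all 15240. Its Sec-Pro H3K27ac peak was 215 bp long and stood at percentile 38.4 of its list, while the nearest Ent-Pro H3K27ac peak lay 5041 bp away. H3K4me2 covered it in both Sec-Pro libraries, in Ent-Pro replicate 1 and in GOB, but not in ISC, Ent-Pro replicate 2 or ENT. The next, chr8:125222312-125223383, ranked 24 and had Sec-Pro H3K27ac at percentile 14.9, with the nearest Ent-Pro peak 19441 bp away. Its Ent-Pro DHS stood at percentile 2.3, near the bottom of its list. H3K4me2 covered it in DBZ Sec-Pro, in GOB and, at percentile 1.6, in Ent-Pro replicate 1. In Rbpj-/- Sec-Pro the nearest H3K4me2 peak was 18099 bp away, and in Ent-Pro replicate 2 it was 19205 bp away. The nearest H3K4me2 peaks in ISC and ENT were 19187 bp and 16990 bp from it. The third, chr15:97597760-97598415, had H3K4me2 in all 7 lists and an Ent-Pro H3K27ac peak 131 bp away. No annotation of mm9 was used here, so it is not given whether these regions lie in a gene or an exon.

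Among sites acetylated in Ent-Pro alone, the highest ATOH1 score belonged to chr16:17208812-17209554, which ranked 36. It had strong H3K4me2 in all 7 lists, with percentiles from 97.7 in ISC to 99.9 in ENT, and a Sec-Pro H3K27ac peak ended 45 bp from it. At chr6:147736662-147737024, rank 40, no Sec-Pro H3K27ac peak lay nearer than 11520 bp, and H3K4me2 covered it in ISC and DBZ Sec-Pro alone. At chr17:15230439-15230936, rank 41, the Sec-Pro H3K27ac peak was 5 bp away. Thus 2 of the 3 highest-ranked sites called for Ent-Pro alone were next to a Sec-Pro peak.

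The second comparison asked whether shared open ATOH1 sites keep H3K4me2 in both mature lineages. GOB and ENT both marked 4372 of them (90.4% [89.5, 91.2]), against 53.6% of all ATOH1 peaks, and neither marked 283 (5.85%), against 35.9%. GOB marked 93.8% and ENT 90.8%, a difference of 3.0 points [2.46, 3.54]. GOB but not ENT marked 164 sites (3.39%), against 9.14% of all ATOH1 peaks. ENT but not GOB marked 19 (0.393%), against 1.37% of all ATOH1 peaks. The balance thus leaned towards GOB, and both counts were a smaller share than over the whole ATOH1 list.

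GOB led ENT by more at the other ATOH1 sites. The difference was 18.1 points [13.8, 22.4] at sites with a DHS in Sec-Pro alone, 7.84 points [5.80, 9.88] at those with one in Ent-Pro alone and 9.88 points [9.16, 10.6] at those without a DHS. None of these intervals overlapped that of the shared open sites. ENT marked 35.3%, 71.6% and 35.6% of these classes in that order, against 90.8% of the shared open sites. GOB thus had less room to lead ENT at the shared open sites, and the part of this was not tested. With 1 GOB and 1 ENT library there is no replicate check.

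The 164 sites marked in GOB and not ENT had fewer of the other marks and weaker DHS than the shared open sites as a whole, and so had the 19 marked in ENT and not GOB. DBZ Sec-Pro marked 53.0% of them with H3K4me2 and Rbpj-/- Sec-Pro 21.3%, while Ent-Pro replicates 1 and 2 marked 48.8% and 21.3%. ISC marked 13.4%. Their median ATOH1 score was 10.9, against 6.47 over all shared open sites, and the DHS around them stood at median percentiles of 57.6 in Sec-Pro and 55.2 in Ent-Pro, against 77.8 and 80.7. Of the 19 sites marked in ENT and not GOB, ISC marked 15.8%, DBZ and Rbpj-/- Sec-Pro 63.2% and 36.8%, and Ent-Pro replicates 1 and 2 57.9% and 42.1%. Their median ATOH1 score was 9.06 and the median DHS percentiles were 46.2 in Sec-Pro and 54.4 in Ent-Pro, so these traits were not confined to the sites marked in GOB. Both sets were chosen for a missing H3K4me2 peak, and marks came together at shared open sites. Their lower shares and DHS ranks are therefore a description only.

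Among the shared open sites, those marked in GOB and not ENT were most common at the highest ATOH1 scores. Over all ATOH1 peaks the share was 9.14%, larger than in any bin below, and it was not split by ATOH1 score here. In 4 bins of the ATOH1 score, from low to high, GOB but not ENT marked 34 of 1467 sites (2.32%), 26 of 979 (2.66%), 26 of 1182 (2.20%) and 78 of 1210 (6.45%), where tied scores made the bins unequal. ENT but not GOB marked 0.341%, 0.306%, 0.508% and 0.413% over the same bins, without an order, against 1.37% of all ATOH1 peaks. Sites marked by no list made up 6.61%, 5.41%, 2.88% and 3.22%, against 30.3% of all ATOH1 peaks. Sec-Pro H3K27ac varied little, with 75.2%, 77.4%, 79.0% and 77.2%, against 47.7% of all ATOH1 peaks. The median DHS percentile in the highest bin, 75.1 in Sec-Pro and 76.7 in Ent-Pro, was the lowest of the 4.

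The first pair of chromosome 8 sites named above also had the highest ATOH1 scores among sites with H3K4me2 in GOB and not ENT. At chr8:125293200-125294005 the GOB peak stood at percentile 66.8 and the nearest ENT peak lay 4913 bp away. At chr8:125222312-125223383 the GOB peak was 1911 bp long and stood at percentile 65.3.  The third, chr8:96452949-96453569, ranked 61 and carried H3K4me2 in GOB and Ent-Pro replicate 2 and H3K27ac in both progenitors, with the nearest ENT peak 10704 bp away.

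Sites marked in ENT and not GOB were few and most lay close to a GOB peak. Of the 19, 12 had a GOB peak within 500 bp, whereas 47 of the 164 GOB-not-ENT sites had an ENT peak within that distance. Here too such neighbours were not counted over all ATOH1 peaks. The highest by ATOH1 score, chr7:117936197-117936559, ranked 616 and had a GOB peak 22 bp away. The second, chr5:37324707-37324957, ranked 2059 with the nearest GOB peak 53821 bp away, and the third, chr7:132671422-132671713, ranked 2149 with a GOB peak 44 bp away.

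The third comparison set open chromatin with ATOH1 against open chromatin without it. It took Sec-Pro DHS overlapped by an Ent-Pro DHS, 4551 with an ATOH1 peak and 22746 without. Sec-Pro H3K27ac overlapped 78.2% of the shared DHS with ATOH1 and 44.5% of those without, a difference of 33.6 points [32.2, 35.0]. Ent-Pro H3K27ac, mapped in cells without Atoh1, overlapped 81.8% and 47.1%, a difference of 34.6 points [33.3, 35.9]. GOB H3K4me2 overlapped 93.4% and 65.9%, and ENT H3K4me2 90.8% and 62.6%, with differences of 27.5 points [26.5, 28.4] and 28.2 points [27.1, 29.2]. Taken over all DHS scores, shared DHS with ATOH1 thus carried each mark more often, in secretory and absorptive cells alike. They were also longer (median 609 bp against 378 bp) and had higher Sec-Pro DHS scores (median 78.7 against 22.9). On the central 200 bp of the DHS, a setting added after the data were seen, the Sec-Pro H3K27ac difference was 32.7 points [31.2, 34.0].

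ATOH1 was more common in stronger DHS, and the histone difference depended on the DHS score. In 4 bins of equal number by Sec-Pro DHS score, from low to high, an ATOH1 peak overlapped 5.49%, 9.44%, 20.9% and 30.9% of shared DHS. Sec-Pro H3K27ac overlapped 45.1% of shared DHS with ATOH1 and 14.9% of those without in the lowest bin, and 57.3% and 24.5% in the next. In the third bin it overlapped 72.8% with ATOH1 and 59.8% without, and in the highest 94.1% and 93.9%. The differences over the 4 bins, low to high, were 30.1 points [25.1, 35.3], 32.8 points [28.8, 36.7], 13.1 points [10.4, 15.7] and 0.16 points [-1.11, 1.33]. For GOB H3K4me2 the differences were 36.2, 29.2, 1.7 and 0.09 points. The H3K27ac gap thus closed in the highest bin, where nearly every shared DHS was marked with or without ATOH1. The GOB H3K4me2 gap was already small in the third bin.

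**Figure D3:**
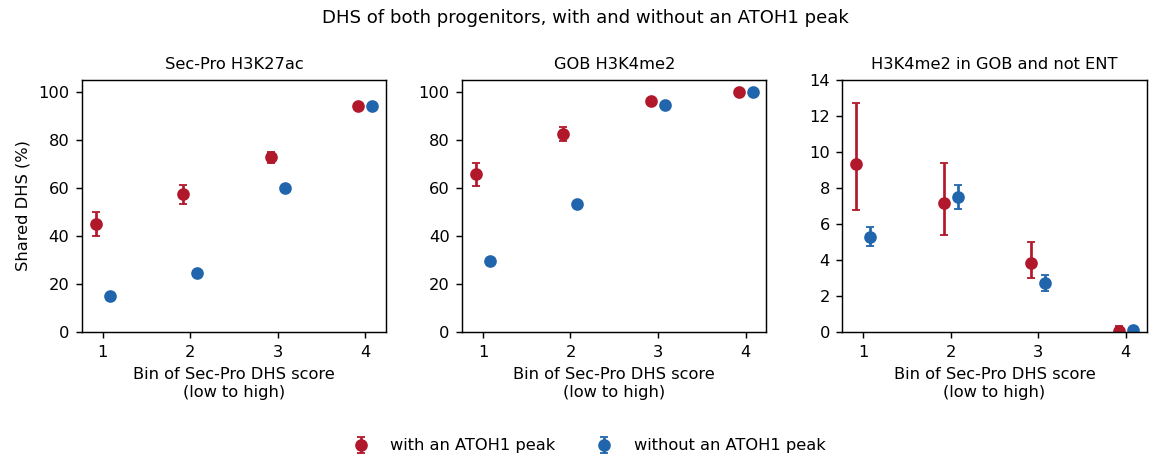
Share (%) of DHS found in both progenitors that were overlapped by Sec-Pro H3K27ac, by GOB H3K4me2, and by H3K4me2 in GOB and not ENT, with and without an ATOH1 peak, in 4 bins of the Sec-Pro DHS score from low to high, with 95% Wilson intervals over DHS. The first panel shows a gap in the lower bins that closes in the highest (94.1% and 93.9% for H3K27ac). The gap in the second panel is already small in the third bin, and the y axis of the third panel ends at 14%.

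H3K4me2 in GOB and not ENT showed no stable difference between these DHS. It marked 3.03% of the shared DHS with ATOH1 and 4.19% of those without, a difference of -1.16 points [-1.69, -0.57]. Over the DHS score bins, from low to high, the difference was 4.05 points [1.44, 7.46], -0.34 points [-2.21, 2.0], 1.16 points [0.16, 2.36] and -0.01 points [-0.17, 0.25], so the sign turned in the lowest bin and in the third. GOB led ENT by 2.59 points [2.06, 3.13] at shared DHS with ATOH1 and by 3.28 points [2.99, 3.57] at those without.

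Around the ATOH1 peak centre, ISC differed from the other lists. H3K4me2 of ISC covered 42.7% of the shared open sites at the centre, against 51.7% at 500 bp downstream in genome coordinates. GOB covered 92.1% at the centre and 77.6% at 500 bp, and ENT 86.7% and 75.3%. DBZ Sec-Pro was nearly level, with 78.4% and 77.6%. At 3000 bp all 9 lists covered between 7.88% and 18.4% of the sites. At ATOH1 sites without a DHS, ISC showed no such dip, with 17.8% at the centre and 12.2% at 500 bp.

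**Figure D4:**
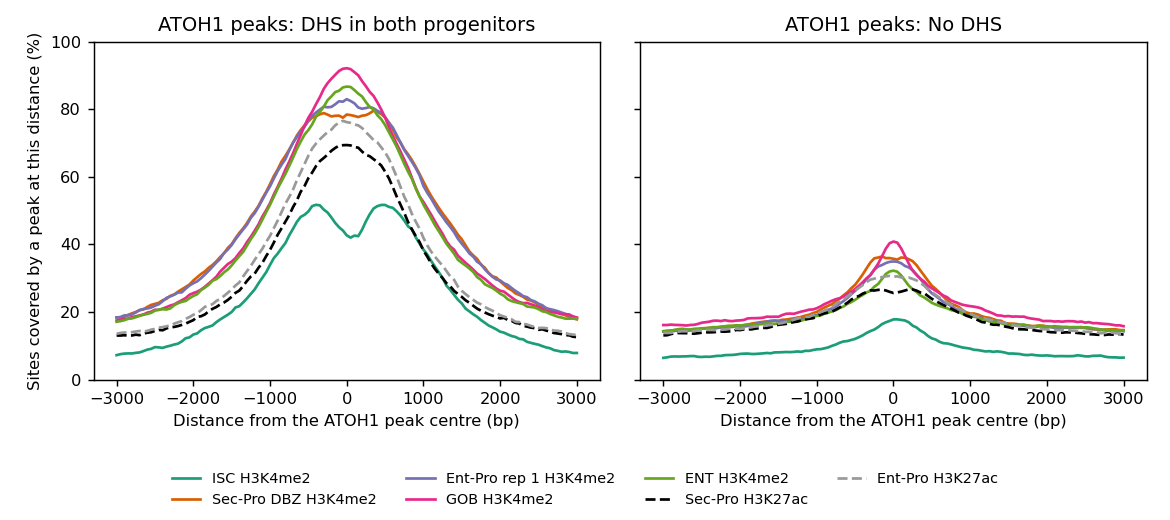
Share (%) of sites whose base at a given distance from the ATOH1 peak centre (bp, x axis) is covered by a peak of each list, for ATOH1 peaks with a DHS in both progenitors (left) and without a DHS (right), with solid lines for H3K4me2 and broken lines for H3K27ac. On the left ISC dips at the centre to 42.7% while GOB peaks there at 92.1%.

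Counted site by site, 644 shared open sites lay in a gap of the ISC list, with no peak on the site and a peak within 500 bp on either side. These were 17.4% [16.2, 18.7] of the 3695 sites that ISC marked or flanked in this way. The same share was 4.81% in Rbpj-/- Sec-Pro, 3.38% in DBZ Sec-Pro, 1.82% and 5.17% in Ent-Pro replicates 1 and 2, 0.0881% (4 sites) in GOB and 0.499% in ENT. In the H3K27ac lists it was 0.982% in Sec-Pro and 0.381% in Ent-Pro. Gaps were thus most common in ISC among the 9 lists, and among the H3K4me2 lists they were rarest in GOB and ENT. At ATOH1 sites without a DHS the share was lower in ISC, 5.67% [4.81, 6.68], but again the highest of the 9 lists. There it was 1.54% in GOB and 1.38% in ENT. Within 500 bp, ISC marked 86.9% of the shared open sites, against 63.1% on the site itself, and 1152 of the 1787 sites without an ISC peak had one within that distance. At ATOH1 sites without a DHS, ISC marked 33.0% within 500 bp and 23.9% on the site itself.

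Gaps were also found in open chromatin without ATOH1. In the central 200 bp of shared DHS without ATOH1, 28.6% [27.8, 29.5] of the places marked or flanked by ISC lay in a gap. The share was 0.556% in GOB and 1.42% in ENT at these places. The 28.6% is not like for like with the 17.4% at shared open ATOH1 sites. Those sites varied in length, and their centres lay a median of 126.5 bp from the Sec-Pro DHS centre. The median ISC peak on a shared open ATOH1 site was 723 bp long, against 2068 bp in GOB and 1884 bp in ENT, and the ISC list covered 33.4 Mb, against 64.4 Mb and 69.5 Mb. The part of peak length in the gaps was not tested.

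The 3 highest-ranked sites with all 9 marks had the 3 highest ATOH1 scores of the whole list. At chr19:46592122-46593467, with the highest ATOH1 score of 309, the DHS stood at percentiles 82.7 in Sec-Pro and 69.5 in Ent-Pro. Its H3K4me2 peaks ranked low in ISC and higher in the other lists, at percentiles 17.7 in ISC, 63.3 and 70.0 in Sec-Pro, 74.6 and 62.3 in Ent-Pro, 80.3 in GOB and 69.6 in ENT. At chr7:53014363-53015337, second with a score of 297, the DHS stood at percentiles 98.9 and 96.7, and H3K27ac at 94.96 in Sec-Pro and 93.05 in Ent-Pro. At chr7:19669438-19670326, with a score of 295, the DHS stood at 56.4 and 61.7. There the ENT H3K4me2 peak was 334 bp long at percentile 4.81, beside a GOB peak of 3333 bp at percentile 78.6. The H3K4me2 peaks of Ent-Pro replicates 1 and 2 also lay far apart, at percentiles 73.6 and 7.21, so libraries of 1 cell type differed as well. The strongest ATOH1 peaks thus did not share 1 chromatin rank.

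The sites with the highest DHS scores were not those with the highest ATOH1 scores. The shared open site with the highest Sec-Pro DHS score, chr5:28398236-28398411, had an ATOH1 score of 8.6 and ranked 5429, and all lists but ISC marked it, with an ISC peak 216 bp away. The site with the highest Ent-Pro DHS score, chr5:140864915-140865252, had an ATOH1 score of 31.3, ranked 1051 and was marked in all 9 lists.

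The 223 shared open sites without any histone peak stood in weaker open chromatin. Their DHS had median percentiles of 35.8 in Sec-Pro and 38.2 in Ent-Pro, against 77.8 and 80.7 over all shared open sites, and their median ATOH1 score was 5.66. Only 35 of them had a peak of any of the 9 lists within 500 bp. A few had strong ATOH1 peaks all the same. The site chr15:62043753-62044251 had an ATOH1 score of 228, the sixth highest of the list, and a Sec-Pro DHS at percentile 68.5, while its nearest H3K4me2 peak, in ISC, lay 2538 bp away and the nearest H3K27ac peak, in Sec-Pro, 22662 bp away. At chr11:102224987-102225518, rank 89, the nearest peaks of the 9 lists lay 9843 to 11075 bp away, and at chr15:83468754-83469336, rank 90, they lay 42355 to 42755 bp away.

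Most shared open ATOH1 sites had no other shared open site nearby. When sites with centres within 10 kb were chained, 3500 (72.3%) had no other member near them. Other ATOH1 peaks were left out of the chains, and the share was not counted over all ATOH1 peaks. The rest formed 483 pairs, 79 groups of 3, 18 of 4, 9 of 5 and 3 of 6 sites. The first group of 6, chr7:19661282-19679492, spans 18211 bp and contains the ATOH1 peak of rank 3. H3K4me2 marked 5 of its 6 sites in ISC and all 6 in the other 6 lists, whereas H3K27ac marked 1 of 6 in each progenitor.

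The other groups of 6 were acetylated nearly throughout. At chr4:132641032-132669719, over 28688 bp, H3K27ac marked 5 of 6 sites in Sec-Pro and all 6 in Ent-Pro, and H3K4me2 marked 6 in GOB and 5 in ENT. At chr5:148104913-148118427, over 13515 bp, H3K27ac and the GOB and ENT H3K4me2 lists marked all 6, and the highest ATOH1 score was 10.2. The stretches held 8, 11 and 7 ATOH1 peaks in all on chromosomes 7, 4 and 5. The 3 groups thus differed in H3K27ac, while each H3K4me2 list marked at least 3 of the 6 sites in each of them.

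**Figure D5:**
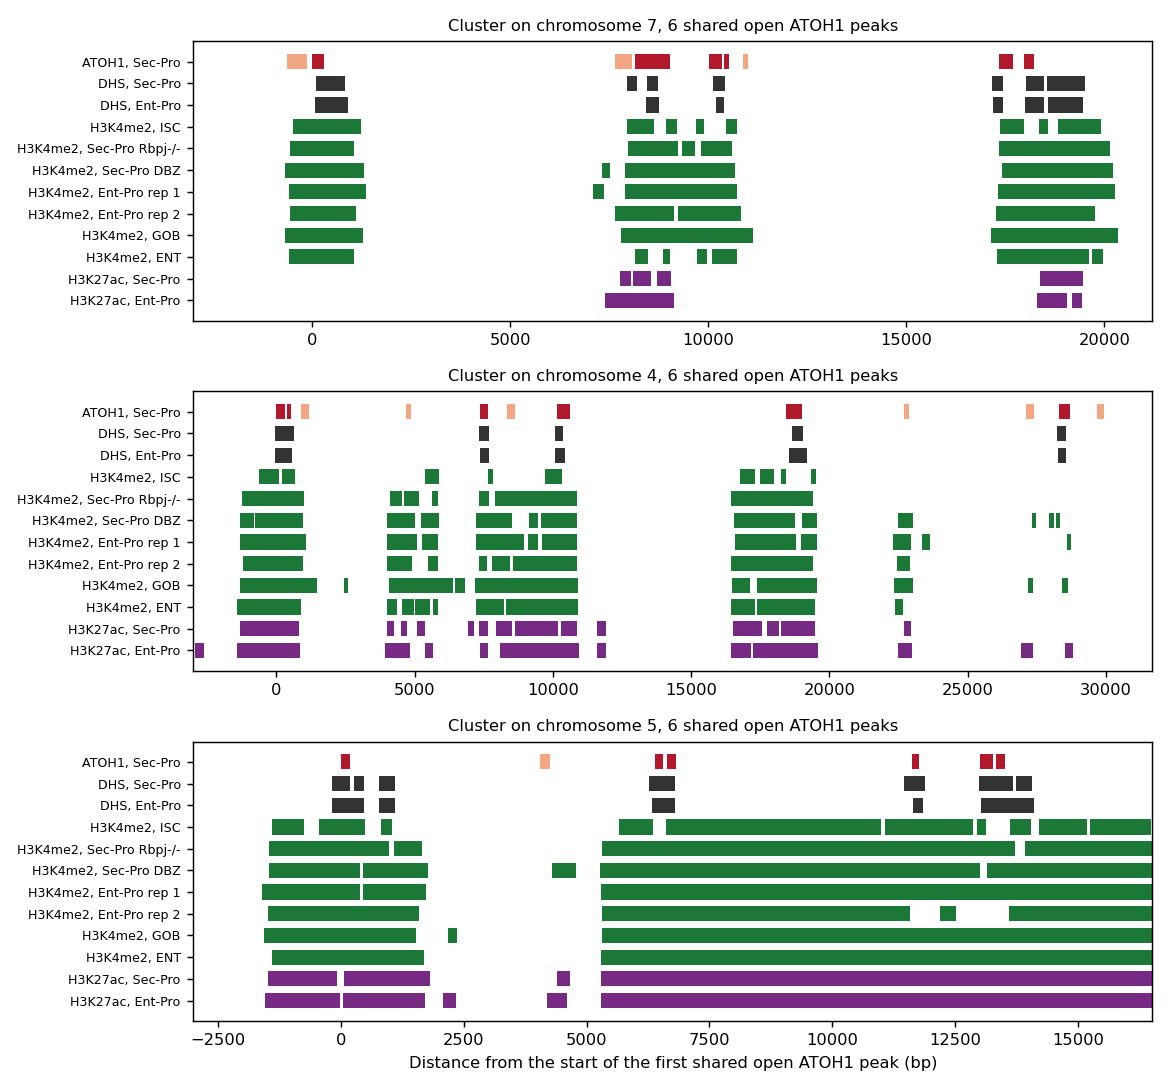
Peaks of all 12 lists around the 3 groups of 6 shared open ATOH1 sites, by distance (bp) from the start of the first site, drawn to 3000 bp beyond either end. In the top row of each panel dark red bars are shared open ATOH1 sites and light bars other ATOH1 peaks. H3K27ac overlaps 1 of 6 sites in each progenitor in the chromosome 7 group and 5 or 6 of 6 in the other groups.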

How the data were processed

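Peaks of chromatin immunoprecipitation (H3K4me2, H3K27ac, ATOH1) and DNase-seq were deposited by the authors as 1 list per library, with mm9 positions, a name and an unnamed score per peak. CASAVA 1.7, Bowtie 0.12.7 and MACS2 were used, per the submitters' processing notes, and no source used here gives the parameters or the use of input DNA. The 12 lists of 15 samples were used, and the 3 input samples were not analysed here. Nothing in the labels says whether replicates came from separate animals.

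Overlaps of at least 1 bp were counted in Python 3.11.15 with NumPy 2.4.6, pandas 2.3.3 and SciPy 1.17.1, and figures drawn with matplotlib 3.10.9. The overlap functions were tested on simulated data. Shares have Wilson intervals, differences between sets of sites Newcombe intervals, and differences between lists over the same sites Wald intervals from the discordant sites, all at 95%. No p-value was computed over sites. The percentile of a peak is its score rank within its list, and where several peaks overlapped a site the highest-scoring was taken. Regions named are the 3 highest ATOH1 scores of each class, the site of highest DHS score in each progenitor and the 3 largest groups. The members, classes and comparisons were chosen with earlier results of these data known. The gene table at hand is of another build, so no gene was named and no sequence read. Alternatives were the overlap required, marks within 500 bp, the central 200 bp, the upper 50% of lists, lists of equal length, autosomes, 1 peak per DHS, and left-out libraries.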

Additional observations from a re-analysis of the deposited data

How the results depend on the processing

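Over all results and alternatives, 68 of 80 values stayed the same. For a difference with an interval this meant the same sign and an interval that still excluded 0. For mean H3K4me2 in Sec-Pro minus Ent-Pro it meant the same sign, and for the number of sites a change within the bound set. H3K27ac in Sec-Pro minus Ent-Pro at the shared open sites stayed below 0 in 9 of 9 (-6.43 to -2.77 points), GOB minus ENT above 0 in 9 of 9 (2.50 to 5.02), and the Sec-Pro H3K27ac differences from sites without a DHS (38.1 to 47.8, 8 of 8) and from sites open in Sec-Pro alone (26.8 to 53.0, 9 of 9) likewise. Restricting ATOH1 to the upper 50% of its list left 2499 shared open sites, by construction. Mean H3K4me2 in Sec-Pro minus Ent-Pro ran from -4.06 to 2.66 points when 1 library was left out and was 0.39 points in the 200-bp lists, and the cause was not tested. The Sec-Pro H3K27ac difference between shared DHS with and without ATOH1 was 0.16 points in the highest of 4 bins of the DHS score. For H3K4me2 in GOB and not ENT that difference had an interval spanning 0 with 50% of the site covered (-0.52), with the upper 50% of the histone lists (-0.0234) or of the ATOH1 list (-0.14) and in the second (-0.337) and the highest (-0.0111) bin, and it turned positive in the lowest (4.05) and the third (1.16); the cause was not tested. The bins, the central 200 bp of DHS and the lower 50% of DHS were added after the data were seen. Lists of equal length do not apply to results from 1 list, 1 peak per DHS does not apply to counts of DHS, and settings on the marks do not apply to the number of sites. No paired analysis was possible because the Sec-Pro replicates are different preparations (Rbpj-/- and DBZ) that the labels do not match to either Ent-Pro replicate. Unknown depth limits every absence of a peak.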
